A study of Mus musculus with 3 samples.

Results

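The Lin28, Hmga, Igf2bp and Myc genes belong to a growth programme that is active in the embryo and, for most of these genes, lowered after birth. The 10 genes Lin28a, Lin28b, Hmga1, Hmga2, Igf2bp1, Igf2bp2, Igf2bp3, Myc, Mycn and Mycl were taken by gene symbol from the 32285 features counted in single cells of the embryonic mouse kidney. They were listed by name, with earlier results of these data known. The comparison was between 3 groups, with 1 library of cells each. Enl-WT kidneys were Enl+/+ Wt1 GFPCre/+ and Enl-T1 kidneys were Enl flox-T1/+ Wt1 GFPCre/+, both labelled as given no treatment. Enl-T1 TDI-11055 kidneys had the Enl-T1 genotype and came from mothers given TDI-11055, a small molecule that blocks the YEATS domain of ENL. The dose was 100 mg/kg by mouth each day from E10.5 to E14.5. The 3 groups include no vehicle-treated library, so the compound cannot be told apart from the dosing itself. ENL, encoded by Mllt1, is a chromatin reader, and T1 is a small in-frame insertion in its YEATS domain. All kidneys were taken at E15.5.

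The Cre is knocked into Wt1, so every group lacked 1 working allele of Wt1, and the recombined cells are those of the Wt1 lineages, mainly nephron and stroma, while the ureteric epithelium and the endothelium lie outside them. Embryos were pooled and cells could not be assigned to single embryos. With 1 library per group there is no replicate, so no p-value is given. Each level is the UMI count of a gene summed over a cell class, scaled to 1000000 UMIs of that class (CPM), and intervals are 95% exact intervals that cover counting error only.

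In the fetal kidney a LIN28 protein binds the precursors of let-7 microRNAs and blocks their maturation, and let-7 in turn lowers the output of messenger RNAs that carry matches to its seed, among them those of Hmga2, the Igf2bp genes and Lin28b itself. The IGF2BP proteins bind and stabilise messenger RNAs of growth genes, HMGA proteins bend AT-rich DNA in progenitor chromatin, and the MYC proteins pair with MAX to drive ribosome and metabolic genes. Persistent LIN28 activity in the embryonic kidney prolongs the life of nephron progenitors and causes Wilms tumour in mice, and MYCN is altered in some human Wilms tumours.

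Let-7 is introduced by sequence because matches to its seed link most of these genes, though not Myc, Mycn or Mycl. A microRNA is not captured by counting polyadenylated 3′ ends, so let-7 itself was not measured. Of 12 mature family names in RefSeq (GRCm38.p6), 10 share the seed GAGGUAG, bases 2 to 8, set in capitals in the members shown:
let-7a-5p: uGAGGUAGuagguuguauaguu
let-7d-5p: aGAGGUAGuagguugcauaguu
let-7g-5p: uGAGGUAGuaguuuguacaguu

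LIN28 proteins recognise GGAG in the loop region of a let-7 hairpin, and 8 of the 12 hairpins with the seed hold those letters after the mature arm. The hairpin of let-7g (chr9:106178840-106178927, plus strand, 88 bases) is shown with them in capitals:
Mirlet7g: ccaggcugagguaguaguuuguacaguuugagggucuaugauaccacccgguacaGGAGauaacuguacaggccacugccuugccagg

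The complement of the seed, CTACCTC, was searched on the sense strand of the longest 3′ UTR annotated for each gene. It occurred in 7 of the 10 members and in 9.07% of 20869 genes with a 3′ UTR, or in 21.9% of the 3894 genes whose 3′ UTR has 2500 bases or more. Hmga2, Lin28b and Igf2bp1 had 4 matches each, Lin28a 2, and Hmga1, Igf2bp2 and Igf2bp3 1 each. Only 32 genes, 0.153% of all, had 3 or more. Myc, Mycn and Mycl had none. All sites of Hmga2 and the first of Lin28b, Igf2bp1 and Igf2bp3 are shown with the match in capitals (GRCm38, minus strand, 22 bases each):
Hmga2 site 1 (chr10:120364224-120364245): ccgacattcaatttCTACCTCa
Hmga2 site 2 (chr10:120362987-120363008): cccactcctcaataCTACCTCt
Hmga2 site 3 (chr10:120362549-120362570): tgatttgcaaggaaCTACCTCc
Hmga2 site 4 (chr10:120361691-120361712): atcaaaacacactaCTACCTCt
Lin28b site 1 (chr10:45381022-45381043): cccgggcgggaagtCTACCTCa
Igf2bp1 site 1 (chr11:95961778-95961799): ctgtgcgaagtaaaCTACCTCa
Igf2bp3 site 1 (chr6:49086787-49086808): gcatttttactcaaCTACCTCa

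Wherever 3 values follow each other, the order is Enl-WT, then Enl-T1, then Enl-T1 TDI-11055. The cells that passed the filters numbered 5233, 4144 and 2754, with a median of 5090, 9391 and 16932 UMIs. The libraries also differed in ribosomal protein genes, which took 15.9, 26.3 and 26.9% of UMIs, and 26.5, 73.3 and 35.1% of cells were of female type. Between the kept barcodes of library pairs, 5 to 8 were shared. Relative to Enl-WT, longer genes were lower and shorter genes higher in Enl-T1, with a Spearman coefficient across genes of -0.46 between log2 ratio and exonic length in NP1-like cells. Each log2 ratio is given relative to the median of all genes tested, which leaves the 10% shortest genes at 0.48 and the 10% longest at -0.41, and a member is called higher or lower when it lies more than 1.5-fold from that median. Library and group cannot be told apart. Targeted Mllt1 was detected at 29.3, 21.3 and 19.4 CPM in NP1-like cells, which does not check the T1 label, because counts of 3′ ends do not see the insertion.

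Cells were classed from marker genes after clustering without the members. NP1-like cells were named by markers of uncommitted nephron progenitors and NP2-like cells by those of committed ones. The NP1 markers summed to 1155, 428 and 901 CPM in NP1-like cells of the respective libraries. Some names are weak. Only 1 of the 4 NP1-like clusters, that of Cited1 and Meox1, had NP1 markers among its 10 leading genes. The markers of the other 3 were raised by 0.16 to 0.56 on the log2 scale, against 1.57, and cell cycle genes led a pair of them. With finer sub-clusters 428 cells led by genes that include C1qtnf12, Prrx1 and Snap91, 3 leading genes of the least raised cluster, were left unnamed. Their leading genes also included Wnt4 and Bmper, markers of committed progenitors, so NP1-like cells may include committed ones. At the main resolution a nephron cluster led by Sst, Meg3 and Akap12 (48, 236 and 17 cells) was left unnamed. So was a cluster of cells with few UMIs (28, 71 and 70 cells). Both lie in the nephron lineage but in no class, so nephron classes leave out more Enl-T1 than Enl-WT cells. Podocyte markers summed to 9862 CPM in Enl-WT podocyte-like cells but to 181 in the 46 so called in Enl-T1, and proximal tubule markers to 4657 and 297, so the differentiated classes are described in Enl-WT and their Enl-T1 values are not read as levels of those cell types. Trunk markers were higher in urothelial-like than in trunk/collecting duct-like cells in all 3 libraries. Foxd1 stroma-like cells include clusters of 333 and 305 cells led by cell cycle genes. Their Foxd1 stroma markers were raised by 0.20 and 0.59, against 1.80 in the cluster of 317 cells that such markers lead. Tip-like cells likewise include clusters led by cell cycle genes, with tip markers raised by 0.41 to 0.72, against 0.90 in the cluster led by Wnt11 and Etv4 among others.

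Lin28a was close to absent, with 1, 0 and 1 UMIs over all kept cells of the respective libraries. Its paralogue Lin28b, the form best known from fetal tissues and embryonal tumours, was found in 180, 87 and 220 UMIs. The other 8 members were each found in every library. Hmga2 gave 7200, 6041 and 10518 UMIs, Igf2bp1 6145, 4725 and 7736, and Myc 1328, 1498 and 2074. Summed, the 10 members were at 763.1, 484.3 and 717.0 CPM over all kept cells. The Enl-T1 library was the lowest of the 3.

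In Enl-WT kidneys the members fell into different patterns over cell classes, as the map of levels by class shows. Hmga2 and Mycn were highest in progenitor classes. Hmga2 was at 442 CPM in ureteric tip-like cells and 377 in NP1-like cells, against 157 in NP2-like, 38.5 in urothelial-like and 20.5 in podocyte-like cells. Both progenitor values stood above those of every other class beyond counting error. NP1-like cells had 3.72 times (3.41 to 4.06) the Hmga2 level of the differentiated nephron classes together and 18.4 times (13.1 to 26.7) that of podocyte-like cells.

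**Figure D1:**
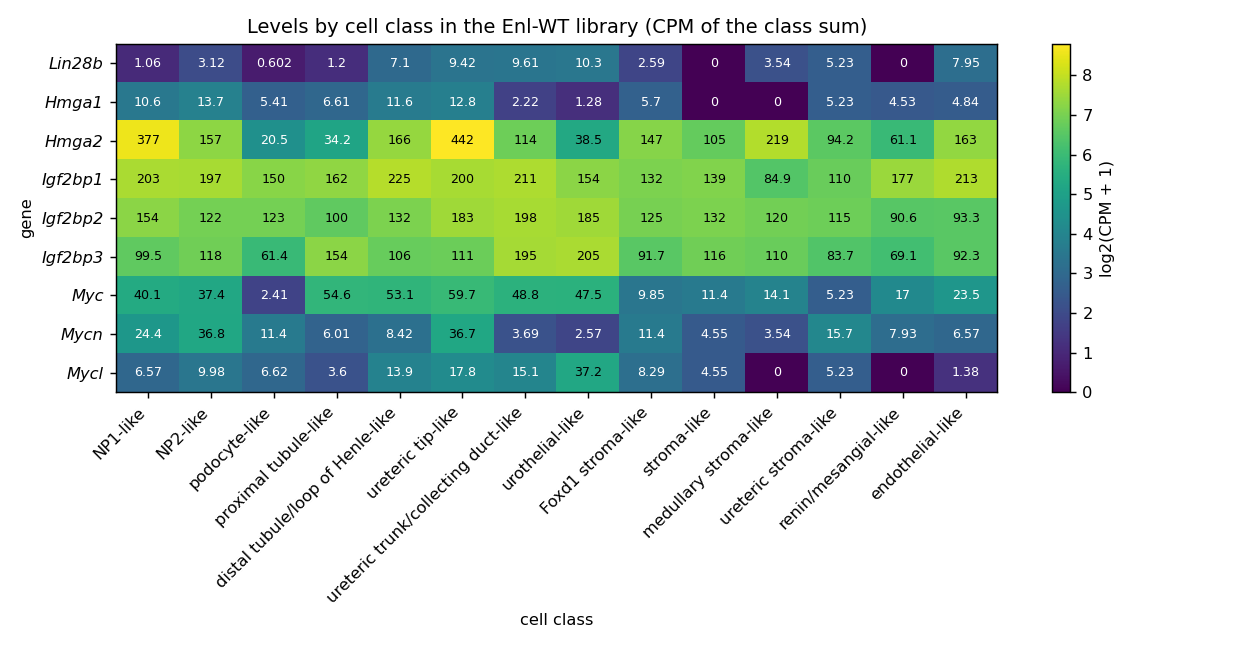
Levels of 9 members (rows) in 14 cell classes (columns) of the Enl-WT library; numbers are CPM of the summed UMIs and colour is log2(CPM + 1). Hmga2 is at 442 and 377 CPM in tip-like and NP1-like cells and at 20.5 in podocyte-like cells, whereas Igf2bp1 is at 84.9 to 225 CPM throughout.

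Mycn, the MYC family member of embryonic progenitors, was at 36.8 CPM in NP2-like, 36.7 in ureteric tip-like and 24.4 in NP1-like cells, and at 3.69 and 2.57 in trunk- and urothelial-like cells. NP1-like cells had 2.85 times (2.07 to 3.95) its level in the differentiated nephron, and NP2-like cells 1.51 times (1.08 to 2.08) the level of NP1-like cells. Thus Mycn was higher, and Hmga2 lower, in NP2-like than in NP1-like cells.

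Mycl, the third MYC paralogue, had its highest level in urothelial-like cells, at 37.2, 36.7 and 33.4 CPM. Tip-like cells held 17.8, 10.9 and 13.2 CPM. The order urothelial-like over tip-like was the same in the 3 libraries, and in each the intervals were apart. Myc was spread over nephron and ureteric epithelium at 37.4 to 59.7 CPM in Enl-WT, apart from the podocyte-like cells, where 4 UMIs gave 2.41 CPM. NP1-like cells had 16.6 times (6.40 to 61.7) that level.

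Lin28b in Enl-WT was at 9.42 CPM in tip-like, 9.61 in trunk/collecting duct-like, 10.3 in urothelial-like, 7.95 in endothelial-like and 7.10 in distal tubule/loop of Henle-like cells. These 5 classes did not differ beyond their counting intervals. In NP1-like cells Lin28b was at 1.06 CPM, from 5 UMIs. The level in nephron progenitors was thus close to the limit of detection, and below that of the ureteric epithelium.

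The Igf2bp genes varied least over classes. Igf2bp1 lay between 84.9 CPM in medullary stroma-like and 225 CPM in distal tubule/loop of Henle-like cells, with NP1-like (203), tip-like (200), trunk-like (211) and endothelial-like (213) cells not differing beyond counting error. Igf2bp2 was highest in the 3 ureteric epithelial classes, at 183 to 198 CPM, and lowest in renin/mesangial-like cells at 90.6. Igf2bp3 was at 205 CPM in urothelial-like, 195 in trunk-like and 154 in proximal tubule-like cells, and at 111 in tip-like cells. Tip-like cells had 0.541 times (0.453 to 0.650) the urothelial-like level of Igf2bp3, the reverse of Hmga2, for which the ratio was 11.5 (8.02 to 17.1).

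Hmga1, the second HMGA gene, was at 13.7, 12.8 and 10.6 CPM in NP2-like, tip-like and NP1-like cells of Enl-WT and at 2.22 in trunk-like cells. Its counts are uncertain because Hmga1b is a near copy, itself found in 42, 23 and 23 UMIs, and reads common to both may be split or discarded.

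In NP1-like cells Enl-T1 was compared with Enl-WT to ask how the mutant changes the programme in nephron progenitors. Of 8 members with at least 5 CPM on average, 3 were higher (Hmga1, Myc and Mycn), against 13.8% of all 9826 genes tested, and 1 was lower (Hmga2), against 13.6%. The median of the members was -0.07 and the median of all genes was 0 by construction, after subtraction of a shift of -0.34. Myc and Mycn thus stood above the median of all genes and Hmga2 below it.

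Hmga2 was at 377 CPM (360 to 395) in Enl-WT, 193 (184 to 202) in Enl-T1, with 287 (277 to 296) in the Enl-T1 TDI-11055 library. Enl-T1 was lowest, Enl-T1 TDI-11055 lay between, and no intervals overlapped. The Enl-T1 to Enl-WT ratio was 0.513 (0.480 to 0.548), or -0.62 on the relative log2 scale, and it was 0.491 to 0.596 within each of the 4 NP1-like clusters, a check added after the pooled value was seen. On the relative scale the clusters were at -0.38, -0.55, -0.68 and -0.70, of which the first pair is within 1.5-fold, and -0.38 is that of the cluster led by NP1 markers. The call did not hold, though the sign did, after subtraction of the median of genes of similar exonic length (-0.41), at a mitochondrial limit of 5% (-0.42), with finer sub-clusters (-0.56) and in male cells alone (-0.55, 395 in Enl-WT and 143 in Enl-T1). Over the whole nephron lineage the ratio was 0.852 (0.807 to 0.899), or 0.17 relative to all genes. The makeup of that lineage differed, with 1076 of 2216 cells in Enl-WT and 191 of 1302 in Enl-T1 in differentiated classes.

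The same shift was seen per cell. After each cell was thinned to 2000 UMIs, 49.7% (46.3 to 53.2) of 835, 28.4% (25.2 to 31.7) of 751 and 42.6% (38.9 to 46.3) of 716 NP1-like cells held an Hmga2 UMI, and 10, 2 and 2 cells below that depth were dropped. At full and unequal depth the shares were 79.6, 77.8 and 85.2%. In Enl-WT podocyte-like cells the thinned share was 1.87% of 214 cells, and in endothelial-like cells it was 24.9, 21.8 and 25.9%. NP1-like cells counted as cycling had 0.941 (0.856 to 1.03), 0.961 (0.872 to 1.06) and 0.975 (0.902 to 1.05) times the Hmga2 level of the others in the respective libraries.

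The contrast between NP1-like and NP2-like cells was smaller in the mutant. NP2-like cells had 0.416 times (0.363 to 0.475) the Hmga2 level of NP1-like cells in Enl-WT, 0.956 (0.794 to 1.14) in Enl-T1 but 0.471 (0.412 to 0.536) in the Enl-T1 TDI-11055 library. The Enl-T1 value rests on 51 NP2-like cells.

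Mycn in NP1-like cells was at 24.4, 30.8 and 34.6 CPM. The ratio of Enl-T1 to Enl-WT was 1.26 (1.01 to 1.58), and relative to all genes 0.67 on the log2 scale. It varied from 0.05 to 1.14 over the 4 NP1-like clusters, so the pooled value is not shared evenly by them. In cells counted as cycling Mycn was at 27.0 CPM in Enl-WT and 22.03 in Enl-T1, and in the others at 22.4 and 36.2. Cycling cells had 1.21 times (0.822 to 1.77) the level of the others in Enl-WT and 0.609 times (0.462 to 0.795) in Enl-T1. Thinned shares were 4.31, 7.59 and 5.87% of cells, against 1.30, 1.17 and 0.862% in endothelial-like cells.

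Myc gave 40.1, 48.5 and 51.8 CPM in the same cells. Enl-T1 over Enl-WT was 1.21 (1.02 to 1.44) and 0.61 relative to all genes, with 0.42 to 0.79 within clusters. Hmga1 gave 10.6, 16.5 and 27.5 CPM and was the member with the largest positive difference in this comparison, at 0.98. The calls of Myc and Mycn rest on the subtracted median: with no centring 1 member, Hmga1, remained higher, at 0.64. These transcripts are short and their values less the median of genes of similar length were 0.45 for Myc, 0.61 for Mycn and 0.70 for Hmga1.

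Igf2bp1, Igf2bp2 and Igf2bp3 stayed within 1.5-fold of the median in NP1-like cells of Enl-T1. Igf2bp1 was at 203, 168 and 259 CPM, a relative difference of 0.07 in Enl-T1. Igf2bp2 was at 154, 95.3 and 83.7 CPM and Igf2bp3 at 99.5, 58.9 and 64.7, with relative differences of -0.35 and -0.42. Lin28b had 5, 1 and 6 UMIs and was not tested.

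**Figure D2:**
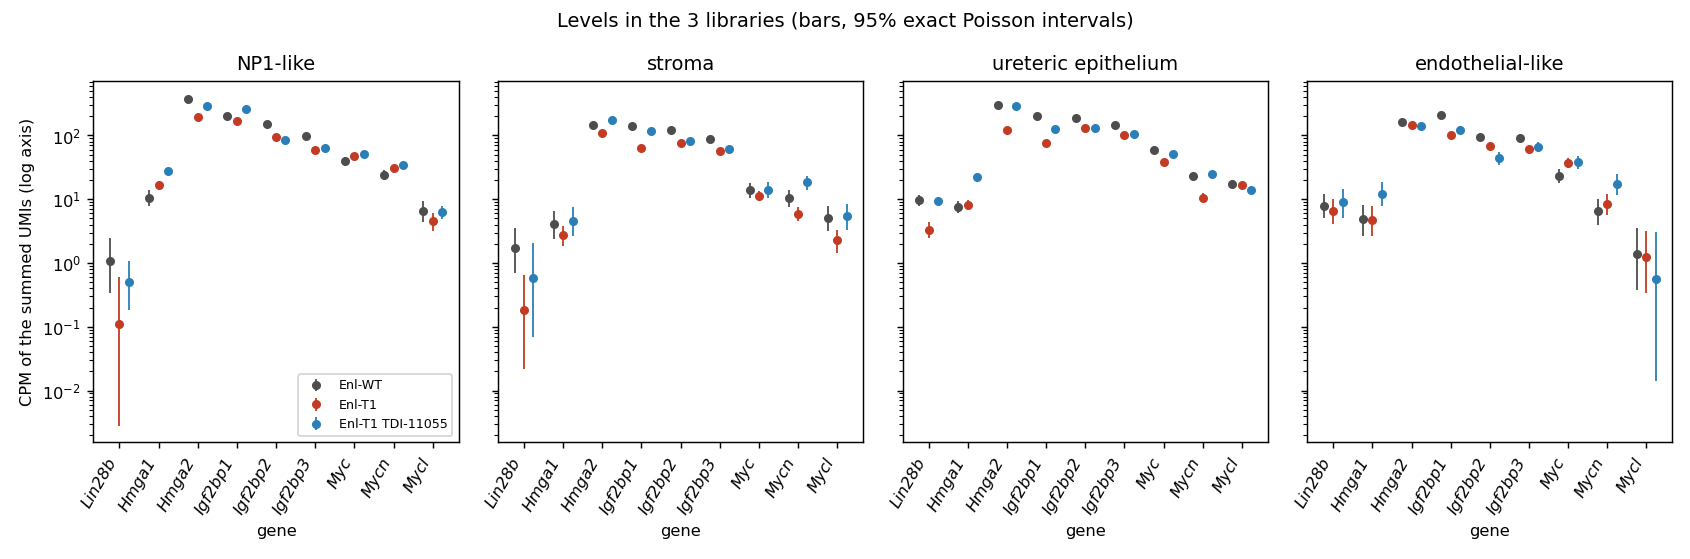
Levels of 9 members (CPM, log axis) in NP1-like cells, stroma, ureteric epithelium and endothelial-like cells, a point for each library with 95% exact Poisson intervals; libraries with no UMI have no point. Hmga2 is lowest in Enl-T1 in the first 3 panels, whereas in endothelial-like cells it is at 163, 144 and 139 CPM.

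In the ureteric epithelium of Enl-T1, 4 of 9 members tested were lower (Lin28b, Hmga2, Igf2bp1 and Mycn), against 9.91% of all 10458 genes, and 0 were higher, against 12.9%. These cells descend from the ureteric bud, outside the main Wt1 lineages. Lin28b was at 9.67 CPM (7.93 to 11.7) in Enl-WT, 3.30 (2.46 to 4.34) in Enl-T1 but 9.53 (8.19 to 11.02) in the Enl-T1 TDI-11055 library. The Enl-T1 library stood below the other 2, which overlapped, and its ratio to Enl-WT was 0.342 (0.240 to 0.481), or -1.25 relative to all genes.

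Hmga2 followed the same order in the ureteric epithelium, with 297, 121 and 287 CPM and a relative difference of -0.99. Igf2bp1 was at 199, 77.6 and 125 CPM (-1.06), and Mycn at 23.5, 10.6 and 24.5 CPM (-0.85). Hmga2, Lin28b and Mycn in Enl-T1 TDI-11055 were near the Enl-WT level, and Igf2bp1 lay between the other 2 libraries.

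The makeup of the lineage differed as well. Urothelial-like cells numbered 139 of 1742 in Enl-WT, 240 of 1171 in Enl-T1 but 55 of 1022 in the Enl-T1 TDI-11055 library. The summed urothelial markers in the lineage were at 134, 554 and 60.01 CPM. In ureteric tip-like cells alone, a restriction added after the values were seen, Lin28b (-1.15), Hmga2 (-0.68) and Igf2bp1 (-0.97) were still lower, and Mycn, at 36.7, 20.7 and 31.2 CPM, was at -0.55, within 1.5-fold. In male cells alone the Hmga2 difference was -0.18 and that of Mycn -0.43, while Lin28b and Igf2bp1 were at -1.24 and -0.69. There were 836 male cells in Enl-WT and 233 in Enl-T1, of which 83 and 18 were urothelial-like, so this restriction changed the makeup as well. The parts of sex and of makeup in the Hmga2 and Mycn values were not tested.

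**Figure D3:**
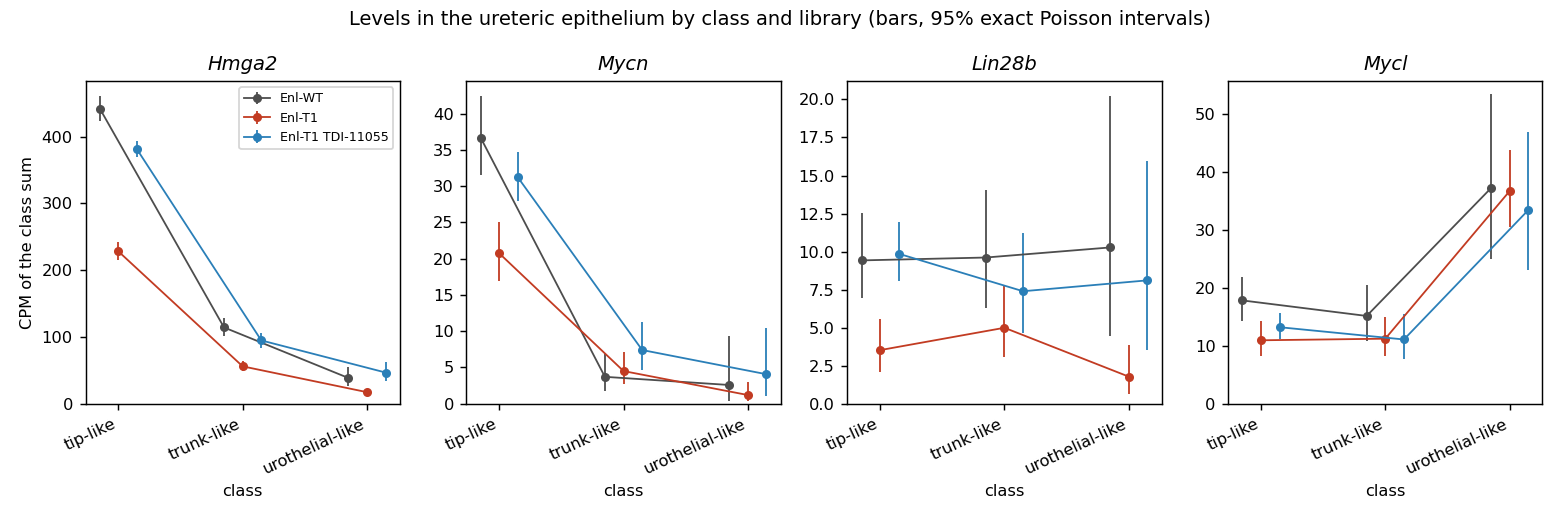
Levels of 4 members (CPM, axes from 0) in tip-like, trunk/collecting duct-like and urothelial-like cells, a line for each library with 95% exact Poisson intervals. Hmga2 and Mycn are highest in tip-like cells and Mycl in urothelial-like cells in each library; the Enl-T1 tip-like values of Hmga2 (228), Mycn (20.7) and Lin28b (3.52) lie below those of the other libraries.

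In stroma 6 members were tested in Enl-T1 over Enl-WT. Igf2bp1 was the 1 lower member, against 12.5% of all 10435 genes, and 0 were higher, against 14.3%. It was at 140, 64.7 and 117 CPM in the respective libraries, a relative difference of -0.81 in Enl-T1. In Foxd1 stroma-like cells, named by markers of cortical stromal progenitors but largely in weakly named clusters, it was at 132, 55.8 and 112 CPM. It was -0.58, within 1.5-fold, in male stromal cells alone, and also -0.58 over all stromal cells less the median of genes of similar length. Hmga2 in stroma was at 146, 110 and 176 CPM and differed from the median of all genes by -0.12.

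Endothelial-like cells also had less Igf2bp1 in Enl-T1, at 213, 101 and 121 CPM, with an Enl-T1 to Enl-WT ratio of 0.472 (0.411 to 0.541). So Igf2bp1 was lower in stroma, ureteric epithelium and endothelial-like cells, and close to the median of all genes in NP1-like cells. Hmga2 in endothelial-like cells had a ratio of 0.886 (0.778 to 1.01), Lin28b was at 7.95, 6.57 and 8.95 CPM, and Myc at 23.5, 36.9 and 38.0. Mycn was at 6.57, 8.44 and 17.3 CPM, from 19, 27 and 31 UMIs. Relative to all genes, Enl-T1 differed from Enl-WT in endothelial-like cells by 0.96 (0.52 to 1.41) for Myc and 0.67 (-0.23 to 1.60) for Mycn. The Myc difference was thus not limited to NP1-like cells, whereas that of Mycn was within counting error in endothelial-like cells.

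**Figure D4:**
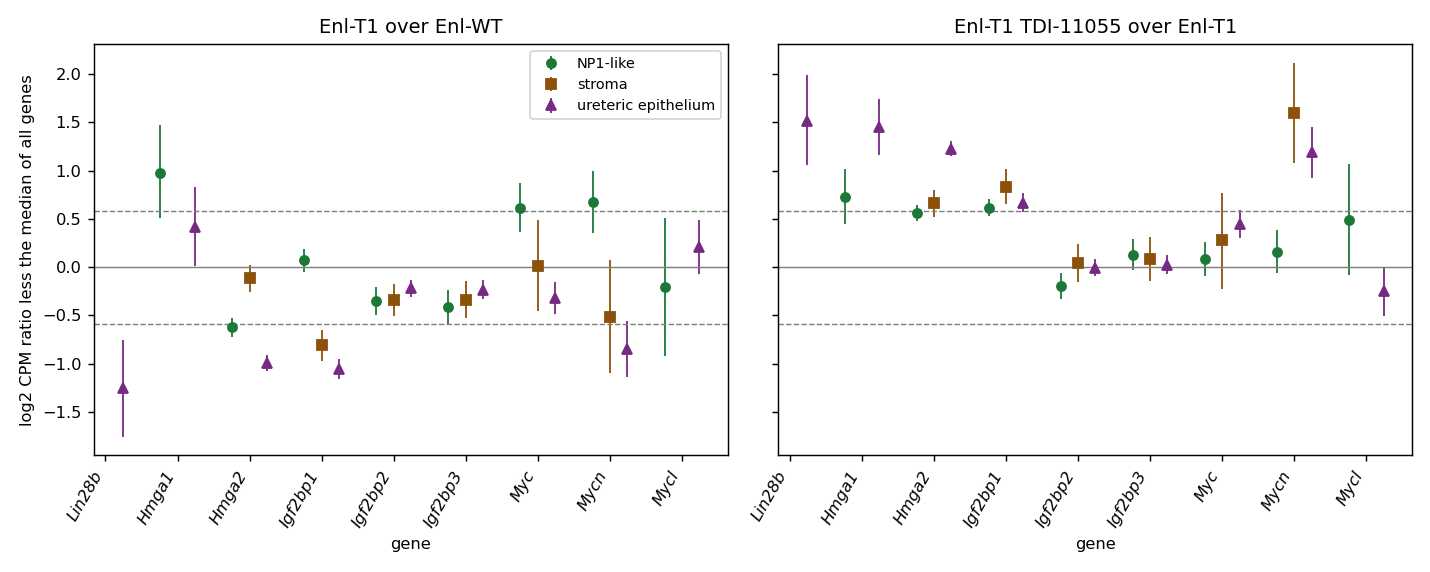
Log2 CPM ratio of each tested member less the median of all genes, with Enl-T1 over Enl-WT on the left and Enl-T1 TDI-11055 over Enl-T1 on the right, in NP1-like cells, stroma and ureteric epithelium; bars are 95% counting intervals and dashed lines mark 1.5-fold. On the left Mycn is at 0.67 in NP1-like cells and at -0.85 in ureteric epithelium; on the right no member lies below the lower line.

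Enl-T1 TDI-11055 was compared with untreated Enl-T1 to ask what differs in mutant kidneys after dosing with the inhibitor. Both comparisons use the same Enl-T1 library, so a member that is low there by sampling is high in the second by construction. In NP1-like cells 2 of 8 members were higher (Hmga1 and Igf2bp1), against 6.13% of all genes, and 0 were lower, against 7.65%. In male cells alone 0 were higher. Longer genes were lower in this comparison too, with a Spearman coefficient of -0.40 in NP1-like cells. Less the median of genes of similar exonic length, Hmga1 was at 0.50, within 1.5-fold, and Hmga2 and Igf2bp1 were at 0.71 and 0.81, past it. In stroma 3 of 6 were higher (Hmga2, Igf2bp1 and Mycn), against 10.2%, and 0 were lower, against 13.3%. The makeup of the stroma differed, with 378 of 871, 406 of 1396 and 171 of 272 cells Foxd1 stroma-like and 48, 227 and 10 ureteric stroma-like. In Foxd1 stroma-like cells alone, a restriction added after the values were seen, Igf2bp1 (1.04) and Mycn (1.72) were still higher and Hmga2 was within 1.5-fold at 0.45. In ureteric epithelium 5 of 9 were higher (Lin28b, Hmga1, Hmga2, Igf2bp1 and Mycn), against 7.3%, and 0 were lower, against 10.3%.

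The ratios of Enl-T1 TDI-11055 to Enl-T1 in ureteric epithelium were 2.88 (2.10 to 4.02) for Lin28b, 2.76 (2.26 to 3.39) for Hmga1, 2.37 (2.25 to 2.50) for Hmga2 and 2.30 (1.92 to 2.77) for Mycn. They rest on 51 and 181 UMIs for Lin28b and on 164 and 465 for Mycn. In tip-like cells alone these 4 genes were still higher past 1.5-fold, at 1.51, 0.95, 0.76 and 0.61 relative to all genes, and the fifth, Igf2bp1, was within it at 0.53.

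Igf2bp1 was higher with TDI-11055 in all 3 compartments, by 1.54 times (1.45 to 1.64) in NP1-like cells, 1.81 (1.60 to 2.05) in stroma and 1.61 (1.5 to 1.72) in ureteric epithelium, though by 1.42 (1.27 to 1.59) and within 1.5-fold in ureteric tip-like cells alone. Igf2bp2 and Igf2bp3 were not: their ratios were 0.878 to 1.10. The largest stromal difference was that of Mycn, which was at 10.51 CPM in Enl-WT, 5.96 in Enl-T1 but 18.3 in the Enl-T1 TDI-11055 library, a ratio of 3.08 (2.15 to 4.41). In Foxd1 stroma-like cells it was at 11.4, 7.97 and 25.7 CPM, from 22, 33 and 55 UMIs. Endothelial-like cells with TDI-11055 had 2.05 times (1.19 to 3.57) the Enl-T1 level of Mycn, from 31 and 27 UMIs. Hmga2 in NP1-like cells was 1.48 times (1.40 to 1.57) the Enl-T1 level, or 0.56 relative to all genes, just inside the 1.5-fold line. Less the median of genes of similar exonic length it was at 0.71, past that line.

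Hmga1 was highest in Enl-T1 TDI-11055 in nephron, ureteric epithelium and endothelial-like cells. It stood at 10.0, 15.53 and 28.4 CPM over the nephron lineage and at 7.52, 8.16 and 22.5 CPM in ureteric epithelium, and no interval of Enl-T1 TDI-11055 overlapped those of the other libraries. In endothelial-like cells, outside the main Wt1 lineages, it was at 4.84, 4.69 and 12.3 CPM, from 14, 15 and 22 UMIs. Intervals overlapped there, and the ratio to Enl-T1 was 2.62 (1.30 to 5.43). The median depth per cell rose from Enl-WT to Enl-T1 to Enl-T1 TDI-11055, and its part in the result was not tested.

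The wider pathway was described with 5 gene lists in NP1-like cells. All list values are relative to all genes and not to genes of similar exonic length, and longer genes were lower in Enl-T1 (Spearman -0.46). Of 11 genes of LIN28 and let-7 processing, 5 were lower in the mutant than in Enl-WT (Trim71, Tut7, Dgcr8, Ago1 and Ago2) and 0 higher, against 13.6 and 13.8% of all genes, with a median of -0.55. Trim71, a let-7 target that keeps early progenitors from differentiating, was at 18.2, 2.52 and 5.90 CPM. Its Enl-T1 to Enl-WT ratio was 0.138 (0.0831 to 0.221), a larger difference than that of any member tested there. Dgcr8, the partner of Drosha, was at 41.99 and 19.6 CPM, whereas Xpo5, which exports microRNA precursors, had a relative difference of 0.03 and Tarbp2, a partner of Dicer, of 0.05. With TDI-11055 1 of these genes, Trim71, was higher than in Enl-T1, by 2.35 times (1.45 to 3.93).

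Among 17 tested further let-7 targets 2 were higher (Ccnd2 and Cdk6) and 3 lower (Igf1r, Insr and Irs2) in Enl-T1, with a median of -0.19. These counts are near the shares of all genes, 13.8% higher and 13.6% lower. Cdk6, a G1 kinase, was at 8.69, 24.3 and 12.8 CPM, and Irs2, an insulin receptor substrate, at 47.9, 19.1 and 18.3. Ccnd2, which encodes cyclin D2, was at 394, 539 and 446 CPM, and Igf1r, the IGF1 receptor, at 223, 109 and 79.4. Matches to the seed were found in the 3′ UTR of 14 of the 19 genes listed.

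Of 9 genes of the MAX network 1 was higher (Mxd3) and 4 lower (Mxd4, Mnt, Mga and Mlxip) in Enl-T1, against 13.8 and 13.6% of all genes, with a median of -0.58. Mnt, a repressor that competes with MYC for MAX, was at 45.6, 19.8 and 17.3 CPM, and Max itself at 40.9, 36.1 and 35.3. Mlxip was at 29.7, 13.7 and 11.6 CPM and Mxd3 at 10.4, 13.6 and 11.6. The 24 MYC-responsive growth genes centred on 0.04, with 2 higher (Ddx18 and Hspe1) and 1 lower (Cad), and the next lowest, Bop1, at -0.53. Hspe1, a mitochondrial chaperonin, was at 276, 777 and 879 CPM, Ddx18 at 108, 140 and 157, and Cad at 66.2, 28.2 and 26.9. Higher Myc and Mycn in NP1-like cells was thus not accompanied by a common shift of this list. With TDI-11055, 11 of the 24 were higher in stroma, 6 in ureteric epithelium and 0 in NP1-like cells, against 10.2, 7.3 and 6.13% of all genes, with medians of 0.47, 0.39 and 0.22. Mycn was higher in stroma and in ureteric epithelium and within 1.5-fold in NP1-like cells, and a link between Mycn and the list was not tested. The stroma values are for the whole lineage, whose makeup differed. Foxd1 stroma-like cells were 406 of 1396 in Enl-T1 and 171 of 272 with TDI-11055. The E-box CACGTG, a palindrome bound by MYC and MAX, lay within 250 bases before to 50 after the start of 7 of 19 of these genes with a promoter window, against 8.09% of 27025 genes, and in Lin28b and Igf2bp3 among 8 members with one.

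Imprinted fetal growth genes were the fifth list, which also holds Gpc3, an X-linked gene that is not imprinted. In Enl-T1, 5 of 9 were lower (H19, Mest, Peg3, Cdkn1c and Grb10), against 13.6% of all genes, and 0 higher, with a median of -0.64. Cdkn1c, which encodes the cell cycle inhibitor p57, was at 645, 228 and 546 CPM, and Mest at 695, 173 and 409. Both followed the order of Hmga2, with Enl-T1 lowest and Enl-T1 TDI-11055 between. Gpc3, a growth-limiting proteoglycan, was at 254, 262 and 236 CPM. Plagl1, which encodes a zinc finger transcription factor, was highest in Enl-T1 and lowest in Enl-T1 TDI-11055, at 27.4, 31.6 and 16.05 CPM, with differences of 0.55 in Enl-T1 and -0.99 with TDI-11055.

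Across 34 sums, each a class in a library, the gene whose log2 level ran most like that of Hmga2 among 11020 genes was Fscn1, with a Pearson coefficient of 0.77. Next were Pgm2l1 and Dctd. Those most like the other members were Cyb5b for Lin28b (0.85), Exosc9 for Mycn (0.82), Met for Myc (0.82), Mbp for Mycl (0.88), Kansl2 for Igf2bp1 (0.83), Ppp4r2 for Igf2bp2 (0.89), Tgfbr1 for Igf2bp3 (0.87) and Eef1e1 for Hmga1 (0.88). The next most like were Rnpep and Inpp1 for Lin28b, Plrg1 and Zfp422 for Mycn, Thoc6 and Cdca7l for Myc, Kcnk1 and Pak1 for Mycl, Eif5 and Pabpc4 for Igf2bp1, Enah and Mapk6 for Igf2bp2, Jade3 and Sestd1 for Igf2bp3, and Magoh and Apex1 for Hmga1. The sums share libraries, depth and cells of related classes, and the coefficients are a description.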

How the data were processed

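Whole kidneys were profiled by droplet 3′ single-cell RNA sequencing. The authors aligned reads to mm10 and made the deposited UMI counts per gene and barcode with Cell Ranger 6.1.2, with no normalization. Barcodes with 1000 to 6000 genes and at most 10% mitochondrial UMIs were kept. Cells were clustered with Seurat 5.3.0 in R 4.3.3 (30 principal components and resolution 0.5, then 20 and 0.8 within lineages) without the members, and named from marker genes by their leading genes; the rule for sub-clusters was set after the clusters were seen. Doublets were kept, since Scrublet marked 136, 0 and 0 barcodes.

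UMIs were summed per class and library and expressed as CPM. Intervals were exact Poisson for levels, exact binomial splits for ratios and Clopper-Pearson for shares, computed with scipy 1.17.1 in Python 3.11.15 at 95% confidence. A gene was compared where its mean over the libraries reached 5 CPM, after subtracting the median log2 ratio. A difference past 1.5-fold is a size, not a test. For shares each cell was thinned to 2000 UMIs. Cycling cells had UMIs of 2 or more of 5 cycling markers after thinning. Likeness was computed on log2(CPM + 1) of sums of at least 50 cells, naming the 3 genes of highest Pearson coefficient other than members. From each list the named genes were the 2 lowest and the 2 highest in Enl-T1 over Enl-WT in NP1-like cells. Others were named after their values were seen.

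GENCODE M21 (GRCm38), which matched 32158 of 32285 features by identifier, gave exonic lengths and the 3′ UTRs of 20869 genes, RefSeq the microRNAs and promoter windows. The procedure was tested on simulated data. The members and lists were chosen with earlier results of these data known.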

Additional observations from a re-analysis of the deposited data

Results flagged for a closer look

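Mycn went in opposite directions in 2 compartments of the same pair of libraries. Relative to the median of all genes, Enl-T1 differed from Enl-WT by 0.67 on the log2 scale in NP1-like cells (24.4 and 30.8 CPM) and by -0.85 in ureteric epithelium (23.5 and 10.6 CPM). It is given here because the counting intervals of the pair lay on opposite sides of 0. With 1 library per group the difference between the compartments was not tested. In ureteric tip-like cells alone the value was -0.55, and over the 4 NP1-like clusters it ranged from 0.05 to 1.14. Endothelial-like cells, outside the main Wt1 lineages, were at 0.67 (-0.23 to 1.60), from 19 Enl-WT and 27 Enl-T1 UMIs.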

How the results depend on the processing

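Of 238 recomputed counts and shares, 198 stayed within 1.5 times or within counting error. Of the recomputed log2 ratios 384 stayed within their counting interval, 120 moved beyond it and 0 called ones changed sign. The counts of members below have no share of all genes under the same setting beside them. They describe the processing and are not read as results about the members. With no centring the shift of all genes, -0.34 in NP1-like cells and -0.30 in stroma for Enl-T1 over Enl-WT, stays in each ratio. In Enl-T1 over Enl-WT in NP1-like cells, 3 higher and 1 lower members became 1 and 3 with no centring. Higher members were 1 in CPM without mitochondrial, ribosomal protein and haemoglobin genes, and lower members were 3 in thinned cells, 2 with no filter, and 0 in male cells, at resolution 1.2 and less the median for length. In stroma the 1 lower member became 4 with no centring, 3 without those genes or with no filter, 2 as mean share, in non-cycling cells or from 1 CPM, and 0 in male cells or less the median for length. In ureteric epithelium 4 lower became 2 in male cells, and 0 higher became 1 in male or in non-cycling cells. In Enl-T1 TDI-11055 over Enl-T1, 2 higher members in NP1-like cells became 1 without those genes or as mean share, 0 in male cells and 4 with no filter, and 3 in stroma became 5 without those genes, in thinned cells or from 1 CPM, and 6 with no filter. Of the MYC-responsive genes 1 in place of 0 was higher in NP1-like cells from 1 CPM and with median-of-ratios size factors.

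Counts between classes are likewise given without a share of all genes. In Enl-WT 0 members were lower in NP1-like than in differentiated nephron cells, and 1 was in thinned cells, at resolution 1.2 and without doublets. In Enl-T1, thinned cells gave 3 higher and 0 lower in place of 1 and 1, and 1 lower in tip- over urothelial-like cells in place of 2, as in Enl-WT. The Enl-T1 minus Enl-WT share of NP1-like cells with a UMI was -21.3 points for Hmga2, -6.84 for Igf2bp1 and 3.28 for Mycn. Without thinning it was -1.82, 11.4 and 15.3, so Igf2bp1 reversed in cells of unequal depth, and at 4000 UMIs it was -11.4 for Igf2bp1. Unless its construction shows it, the cause was not tested.

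Sums over stroma and ureteric epithelium do not depend on resolution 1.2, because these are lineages and not sub-clusters. Their sub-clusters were also made at 1.2, where 232 cells closest to ureteric tip were left unnamed because the tip markers were not raised. No paired analysis was possible because each group has 1 library, and leaving out a library would leave a group with none. Depth limits Lin28b in NP1-like cells, and Lin28a everywhere, to counts near 0.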
